A study of Mus musculus with 2 samples.

Results

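The nuclear-encoded genes of the mitochondrial respiratory chain were examined for binding of CTCF in lung of newborn mice. They were taken as the protein-coding genes of the GENCODE M21 annotation whose symbols begin with Nduf (complex I and its assembly factors), Uqcr (complex III), Atp5 (complex V) or Cox followed by 4 to 8 (complex IV), with Sdha, Sdhb, Sdhc and Sdhd (complex II). This gave 93 genes of the 21646 protein-coding genes with an annotated transcription start site (TSS). Binding was measured by ChIP-seq, in which DNA crosslinked to CTCF is recovered with an antibody and sequenced. There was 1 group of 2 replicates, lungs of B6NCrl mice aged 0 days after birth, with no genetic change or treatment named. The labels give both replicates 1 biosample and 1 donor. Their spread may therefore be technical and says nothing of variation between animals. Lung identity was not checked, because peaks of CTCF hold no marker of a tissue, and the peaks average over all cell types of the organ.

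The respiratory chain passes electrons from NADH and succinate through complexes I to IV to oxygen and pumps protons across the inner mitochondrial membrane, and complex V uses the gradient to make ATP. Most of its subunits are encoded in the nucleus and have promoters rich in CpG, many of them with binding sites for NRF1 and for ETS factors such as GABP. CTCF recognises a long DNA motif through its zinc fingers and halts cohesin on chromatin. It is found at many promoters as well as at the anchors of chromosome loops.

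A site was a peak of the authors' optimal list, which keeps peaks by their reproducibility between replicates (IDR), and a promoter site was one whose summit lay within 1000 bp of a protein-coding TSS. The list held 64732 sites on chromosomes 1 to 19 and X. Signal is a peak's value as the authors deposited it. It is stated here for both replicates pooled and for each replicate, on a scale that the sources used here do not describe. The number of reads is unknown. All intervals are 95% Wilson intervals, which cover counting error only, and genes that share a site or a start region are not independent.

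At Ndufaf4, Ndufv1 and Ndufv2 the strongest promoter site held the core of the CTCF motif without a mismatch, and these sites were among the strong ones. The letters are shown on the strand that reads as the motif, 5′ to 3′, with the core in capitals, in RefSeq's copy of the mm10 (GRCm38.p6) genome. The positions are chr4:24898018-24898047 (plus) for Ndufaf4, chr19:4012918-4012947 (minus) for Ndufv1 and chr17:66101879-66101908 (minus) for Ndufv2.
Ndufaf4: tcctcccggCCACCAGGGGGCgacgagcgc
Ndufv1: acttgggatCCAGCAGAGGGCgacacgtga
Ndufv2: tgtccaagtCCACTAGGTGGCagcccttta
Next come Uqcrc1 (chr9:108936607-108936636, plus) and Ndufa6 (chr15:82354421-82354450, plus), strong sites whose cores have 1 mismatch, and Ndufb10 (chr17:24724489-24724518, minus) and Atp5k (chr5:108434456-108434485, minus), strong sites at which the closest stretch has 2 mismatches and so did not count as a core.
Uqcrc1: acttgctgcCCAACAGGGGGCgactgagca
Ndufa6: gctgaggaaCCACCAGGAGGCgcagcgtcg
Ndufb10: cgctggggaCCACAAGGGGGTgctcgagag
Atp5k: atcctccagTCGCTAGGGGGCagcgctttc
The core is 12 letters long.

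Of the 93 respiratory chain genes, 46 (49.5%, 39.5% to 59.4%) had a promoter site, against 39.8% (39.2% to 40.5%) of all protein-coding genes, a share that lies within the interval of the respiratory chain genes. The other 47 had none. The median distance from a TSS to the nearest site was 1069 bp for the respiratory chain genes and 2966 bp for all protein-coding genes. Within 3000 bp of a TSS, 59 respiratory chain genes (63.4%) had a site, against 50.2% of all protein-coding genes, and within 25 kb 89 (95.7%) had one, against 79.9%. Of the 46 genes, 36 had 1 promoter site and 10 had 2 or more, with the most, 4, at Uqcrh, the hinge protein of complex III. At Atp5g2 the site lay more than 1000 bp inside the gene, at an internal annotated TSS.

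**Figure D1:**
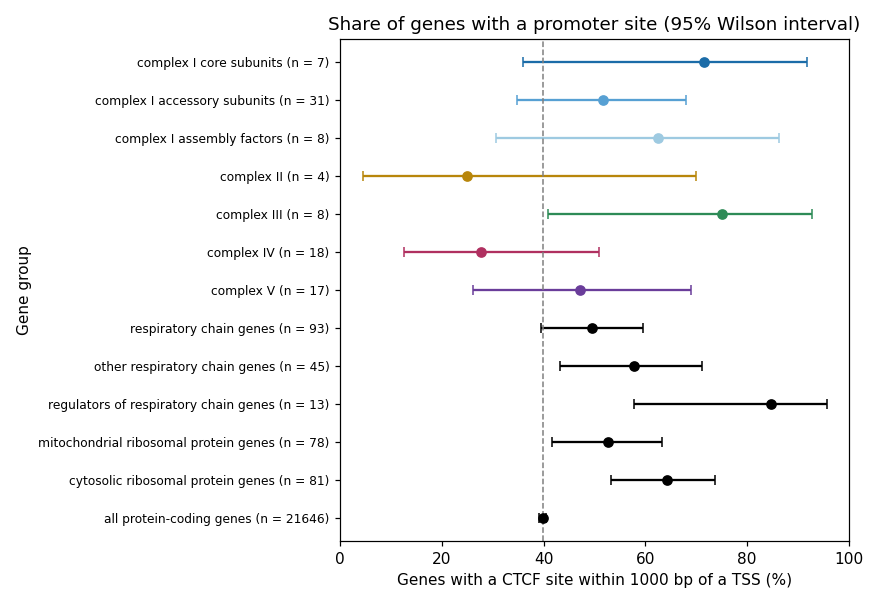
Share of genes with a CTCF site within 1000 bp of a TSS (x axis, percent) for the complexes, all respiratory chain genes, related lists and all protein-coding genes (y axis), with 95% Wilson intervals. The dashed line marks all protein-coding genes at 39.8%; complex III stands at 75% and complex IV at 27.8%, both with wide intervals.

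The share differed between complexes, in groups too small for narrow intervals. Complex III had a site at 6 of 8 genes (75%, 40.9% to 92.9%) and the core subunits of complex I at 5 of 7 (71.4%, 35.9% to 91.8%). The assembly factors of complex I had one at 5 of 8 (62.5%), its accessory subunits at 16 of 31 (51.6%) and complex V at 8 of 17 (47.1%). The groups follow the symbols, so Ndufa4, since placed in complex IV, and its relative Ndufa4l2 count among these accessory subunits. Complex II had one at 1 of 4 genes. Complex IV was lowest among the larger groups, with 5 of 18 (27.8%, 12.5% to 50.9%). Without the tissue-restricted isoforms, complex IV had a site at 4 of 11 genes (36.4%). The lower bound for complex III lay above the 39.8% of all protein-coding genes and the intervals of all other complexes included it.

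Strong sites made up a larger part of the promoter sites of respiratory chain genes than of promoter sites in general, and the core motif was about as frequent in both. The 46 genes had 60 distinct promoter sites, some of them shared with neighbouring genes. Of these, 18 (30%) were in the top 25% of all sites, the 16183 with a pooled signal above 208, against 18.3% of all promoter sites. A further 20 (33.3%) were in the bottom 25%, against 30.8%. Taking the strongest site of each gene, 18 of 46 (39.1%, 26.4% to 53.5%) were in the top 25%, against 22.7% for all protein-coding genes, 36.5% for cytosolic ribosomal protein genes and 31.7% for mitochondrial ribosomal protein genes. The median log2 pooled signal was nonetheless 5.83 over the 60 sites and 5.82 over 10482 promoter sites. The core of the CTCF motif, allowing 1 mismatch within 50 bp of the summit, was found at 12 of the 60 sites (20%, 11.8% to 31.8%), against 20.6% of all promoter sites. The median pooled signal was 236 at the 12 sites with the core and 52.5 at the 48 without it, and 168 and 48.4 at all promoter sites. In the top 25%, 6 of 18 respiratory chain sites (33.3%) held the core, against 48.7% of all promoter sites there. Of the 18 strong sites, 6 had their closest stretch at 2 mismatches and 6 had none within 2.

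**Figure D2:**
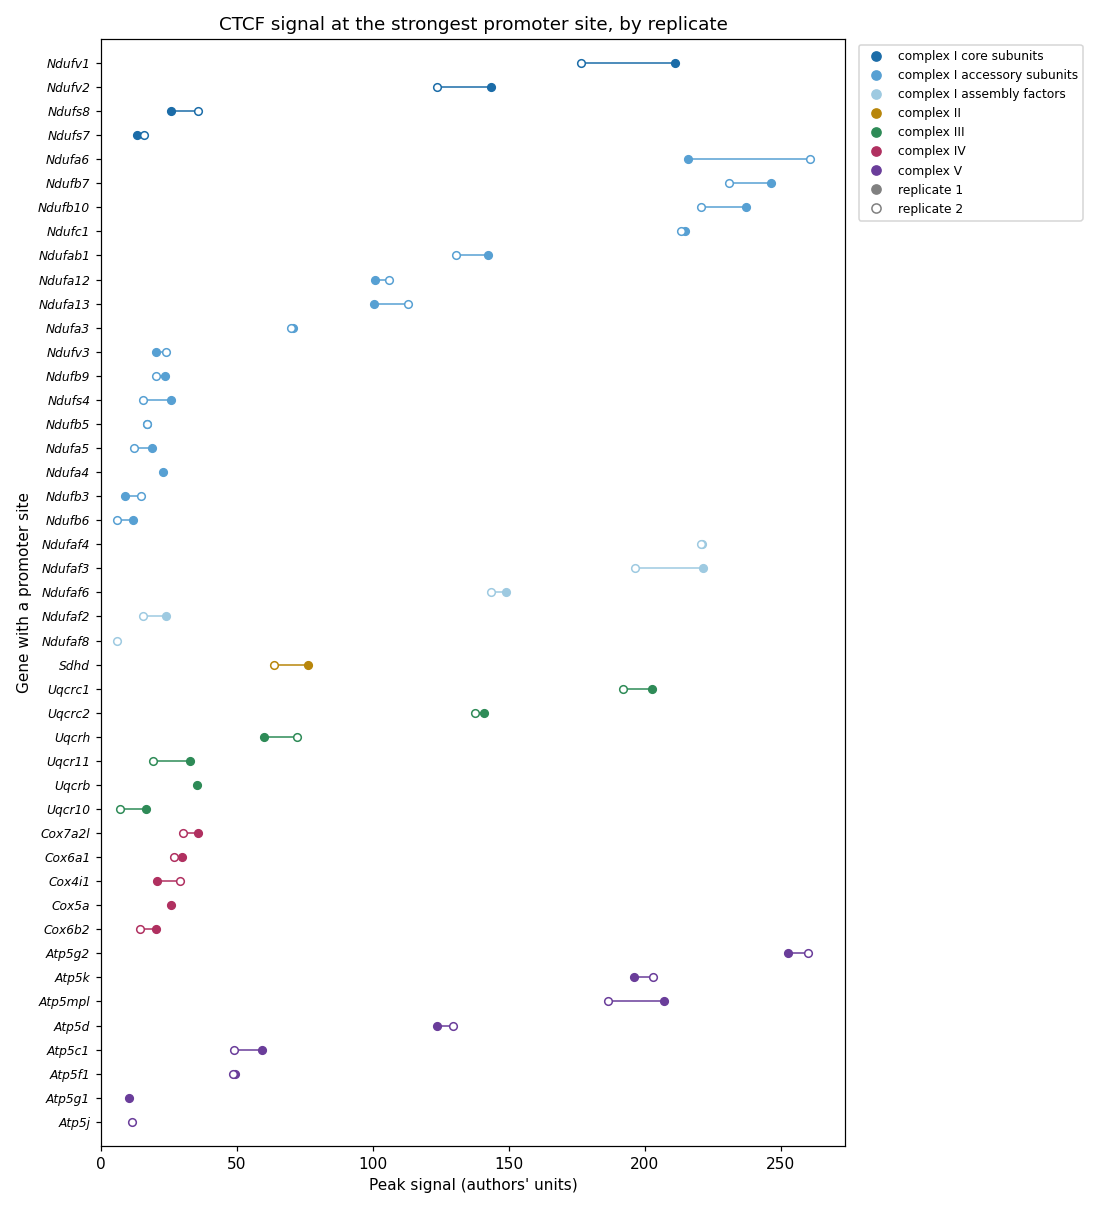
Peak signal (x axis, authors' units) of the strongest promoter site of 45 of the 46 genes (y axis), with filled points for replicate 1 and open points for replicate 2, coloured by complex. A missing point means no peak of that replicate within 100 bp; the 5 complex IV genes lie at or below 35.6, and Atp5g2 lies at 253 and 260.0.

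Among the core subunits of complex I, which carry the path of electrons from NADH to ubiquinone, Ndufv1 and Ndufv2 had strong sites. Ndufv1, the subunit that binds NADH, reached 211 in replicate 1 and 177 in replicate 2, at 126 bp upstream of the TSS. Ndufv2, an iron-sulfur subunit, had 143 and 123, at 339 bp upstream. Both sites held a perfect core, read in the direction of the gene. The sites at Ndufs8 (25.6 and 35.6) and Ndufs7 (13.2 and 15.98), which carry iron-sulfur clusters, were several times weaker and held no core. Ndufs1 and Ndufs3 had no promoter site. Their nearest sites lay 4391 bp away (192 and 203) and 12995 bp away (12.4 and 14.9).

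The accessory subunits of complex I, which surround the core and stabilise it, spanned the whole range. Ndufa6, an LYR-motif protein that binds the acyl carrier protein, had 216 and 261. Ndufb7 had 246 and 231, and Ndufb10 had 237 and 221. Ndufc1 followed with 215 and 213, and Ndufab1, the mitochondrial acyl carrier protein itself, with 142 and 130.5. Each of these 5 sites lay within 118 bp of a TSS and had no other protein-coding TSS within 1000 bp of its summit. Only that of Ndufa6 among them held the core, on the strand opposite to the gene. At the other end, Ndufb6 had 11.8 and 5.80 and Ndufb3 had 8.71 and 14.7, and Ndufa4, named for complex I and since placed in complex IV, had 22.9 in replicate 1 and no peak in replicate 2. Between these, Ndufa12 had 100.9 and 106, just within the top 25% of sites, Ndufa13 (GRIM-19) had 100.5 and 113, and Ndufa3 had 70.6 and 69.9. The 5 strong sites each had 130.5 or more in both replicates, and the 3 weak ones 22.9 or less.

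The assembly factors of complex I, which help to build it but are not part of it, held 3 strong sites. Ndufaf4 had 221 in both replicates, 51 bp upstream of its TSS. Ndufaf3, its partner in early assembly, had 222 and 197 and no core. Ndufaf6 had 149 and 144, also without a core. The site of Ndufaf2 (23.8 and 15.5) and that of Ndufaf8 (no peak in replicate 1 and 5.76 in replicate 2) were weak, and both were shared with a divergent gene, Ercc8 and Tepsin. Ndufaf1, Ndufaf5 and Ndufaf7 had no promoter site.

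In the Ndufaf4 promoter a core of the CTCF motif stood beside the letters of an NRF1 motif. The 250 bases upstream of the TSS are given in gene direction, chr4:24897833-24898082 of GRCm38.p6, plus strand, from RefSeq, with the CTCF core (CCACCAGGGGGC) and the NRF1 letters (CGCATGCG) in capitals. The NRF1 stretch was matched on both strands, since it reads alike on each.
Ndufaf4 promoter: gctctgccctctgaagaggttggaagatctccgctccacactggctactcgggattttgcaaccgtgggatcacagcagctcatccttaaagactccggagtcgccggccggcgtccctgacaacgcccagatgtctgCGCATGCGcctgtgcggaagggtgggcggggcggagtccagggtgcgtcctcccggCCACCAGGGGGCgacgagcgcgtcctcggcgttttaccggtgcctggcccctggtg
The summit of the peak, at position 24898032, lay within the core.

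In complex II, succinate dehydrogenase, which also serves the citric acid cycle, Sdhd was the only gene with a promoter site. Its signal was 76.2 and 63.8, and the summit lay in a coding exon of Timm8b, a small chaperone of the mitochondrial intermembrane space whose promoter faces that of Sdhd. Sdhd anchors the complex in the membrane. Sdhb, the iron-sulfur subunit, had its nearest site 3160 bp upstream with 209 and 192, which was stronger than that of Sdhd in both replicates. The nearest sites of Sdha, the flavoprotein (133 and 118), and Sdhc, the other membrane anchor (44.6 and 28.5), lay 8960 and 8961 bp away.

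In complex III, which passes electrons from ubiquinol to cytochrome c, the core proteins had the strong sites. Uqcrc1 had 203 and 192, with the summit 6 bp upstream of the TSS, and Uqcrc2 had 141 and 137, 40 bp upstream. Uqcrh had 60.1 and 71.9 at the strongest of its 4 sites. The small subunits Uqcr11 (32.9 and 18.97), Uqcrb (35.2 in replicate 1 and no peak in replicate 2) and Uqcr10 (16.7 and 6.95) had weaker ones. Uqcrfs1, the Rieske iron-sulfur protein, had no promoter site but a strong site 3714 bp upstream, with 217 and 221. Uqcrq, a small ubiquinone-binding subunit, had its nearest site 13257 bp away.

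In complex IV, cytochrome c oxidase, 5 genes had promoter sites. Their strongest sites had a median pooled signal of 47.1, against 72.2 for all protein-coding genes with a promoter site. Of these 5 sites, 0 were in the top 25% of sites, against 22.7%, and 1 was in the bottom 25% (20%), against 24.3%. The sites are too few to place these shares closely. The further sites of Cox7a2l, Cox5a and Cox6b2 had pooled signals of 56.1, 37.4 and 29.1. Cox7a2l, a supercomplex assembly factor, had 35.6 and 30.1, and Cox6a1, the widely expressed isoform of subunit 6a, had 29.9 and 27.0. Cox4i1, the widely expressed isoform of subunit 4, had 20.7 and 28.9 at a site in a coding exon of the divergent gene Emc8. Cox5a had 25.6 in replicate 1 and no peak in replicate 2, and Cox6b2, the testis isoform of subunit 6b, had 20.4 and 14.3. None of the 5 strongest sites exceeded 35.6 in a replicate, below the 3 strongest sites of complexes I, III and V.

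Of the 8 tissue-restricted isoforms, which replace a common subunit in muscle, testis or lung or under low oxygen, only Cox6b2 had a promoter site (12.5%, 2.24% to 47.1%). Of the other 7, 5 had a site 1971 to 2981 bp from a TSS, so 6 of 8 (75%) had one within 3000 bp, against 50.2% of all protein-coding genes. Within 5000 bp it was also 6 of 8, against 56.6%. The limit of 3000 bp lies just beyond these distances and was not among the alternative distances. The strongest of these sites was upstream of Ndufa4l2, a hypoxia-induced relative of Ndufa4, with 293 and 305, which ranked 19 of 64732 sites by pooled signal. The core there, at chr10:127513009-127513038 on the plus strand, had 1 mismatch.
Ndufa4l2: gcggctcggCCTCTAGAGGGCgccggcacc
The muscle isoforms Cox6a2 (188 and 179, at 1995 bp), Cox7a1 (185 and 190, at 2637 bp) and Cox8b (200.0 and 184, at 2981 bp) had strong sites upstream, all 3 on chromosome 7. The testis isoforms Cox7b2 (31.7 and 30.8, at 2457 bp) and Cox8c (108 and 103, at 13357 bp) and the lung isoform Cox4i2 (12.5 and 6.94, at 9726 bp, in its own coding exon) had weaker or more distant ones. Of the common counterparts, Cox6a1 and Cox4i1 had weak promoter sites, as did Ndufa4. Cox6b1 (15.0 in replicate 1 only, at 2024 bp), Cox7a2 (22.9 and 7.79, at 2780 bp), Cox7b (98.1 and 92.3, at 2271 bp) and Cox8a (184 and 173, at 17377 bp) had none.

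**Figure D3:**
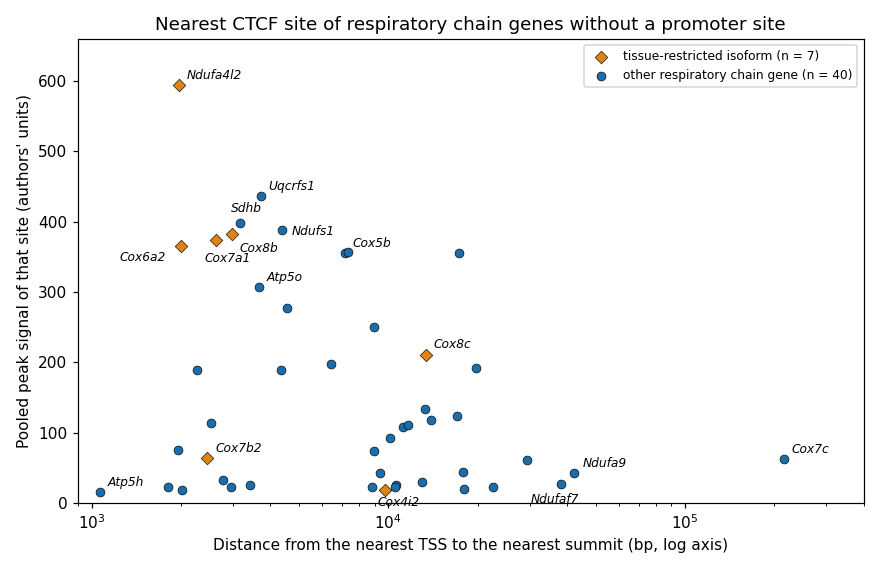
Distance from the nearest TSS to the nearest summit (x axis, bp, log axis) and pooled signal of that site (y axis, authors' units) for the 47 genes without a promoter site. Diamonds are the 7 tissue-restricted isoforms and circles the 40 others; Ndufa4l2 stands highest at 595 and Cox7c farthest at 216260 bp.

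In complex V, the ATP synthase, the 3 genes of the c subunit had unlike sites. This subunit, which forms the rotor ring, has the same mature protein from each gene. Atp5g2 had the strongest promoter site of all the respiratory chain genes (253 and 260.0), 1155 bp inside its outermost 5′ end and 70 bp upstream of an internal TSS. Atp5g1 had 10.2 in replicate 1 and no peak in replicate 2, and Atp5g3 had no promoter site, with the nearest one 13923 bp away (62.9 and 52.5). Atp5k, the e subunit (196 and 203), Atp5mpl, a small membrane subunit (207 and 187), and Atp5d, the delta subunit of the F1 part (124 and 129), followed. None of these 4 strong sites held a core, and at Atp5k and Atp5d the closest stretch had 2 mismatches. The sites of Atp5c1, the gamma subunit (59.3 and 49.1), and Atp5j, coupling factor 6 (no peak in replicate 1 and 11.4 in replicate 2), were shared with their divergent neighbours Kin and Gabpa. The catalytic alpha and beta subunits, Atp5a1 and Atp5b, had no promoter site.

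Genes were ordered here by the distance of their nearest site. The sites of Atp5h and Atp5s, just outside the limit of 1000 bp, were weaker than those of Uqcr11 and Atp5f1, just inside it. Just inside were Uqcr11, whose site lay 821 bp from a TSS (32.9 and 18.97), and Atp5f1, the b subunit, at 807 bp (49.4 and 48.6). Just outside were Atp5h, the d subunit, at 1069 bp (11.9 and 4.70), and Atp5s, at 1813 bp (11.1 and 10.1). The order did not hold further out, where Ndufa7 at 1949 bp (34.5 and 41.2) and Ndufa4l2 at 1971 bp (293 and 305) came next. The strongest site of Ndufa13 lay at 976 bp (100.5 and 113), but another of its sites was nearer, at 223 bp. The genes farthest from any site were Cox7c, a small subunit of complex IV, at 216260 bp (30.3 and 29.4), Ndufa9 at 42160 bp (22.3 and 19.2) and Ndufaf7, a methyltransferase that acts in complex I assembly, at 38354 bp (12.2 and 13.4). Of the 47 genes without a promoter site, 20 had one within 5000 bp, 23 at 5 to 25 kb and 4 beyond. The nearest sites of these 47 genes had a median distance of 8799 bp and a median pooled signal of 107, against 12200.5 bp and 85.2 for all 13028 protein-coding genes without a promoter site, and held the core in 28 of 47 cases (59.6%), against 56.0%.

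Some promoter sites of the respiratory chain genes also lay at the start of a neighbouring gene. The strongest site of 19 of the 46 genes also lay within 1000 bp of a TSS of another protein-coding gene (41.3%, 28.3% to 55.7%), against 16.2% of all 8618 protein-coding genes with a promoter site. A divergent partner within 1000 bp was annotated for 33.3% of respiratory chain genes and 9.94% of all protein-coding genes. Among the 18 sites in the top 25%, 1 was shared, that of Atp5d with Cbarp (5.56%, 0.988% to 25.8%), while 18 of the 28 others were (64.3%, 45.8% to 79.3%). For all protein-coding genes the shares were 11.9% in the top 25% and 17.5% below it. The median pooled signal of respiratory chain genes was 44.2 at the 19 shared sites and 275 at the 27 others, and that of all protein-coding genes 58.8 and 75.0. This split was looked at after the values were seen and was not tested.

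**Figure D4:**
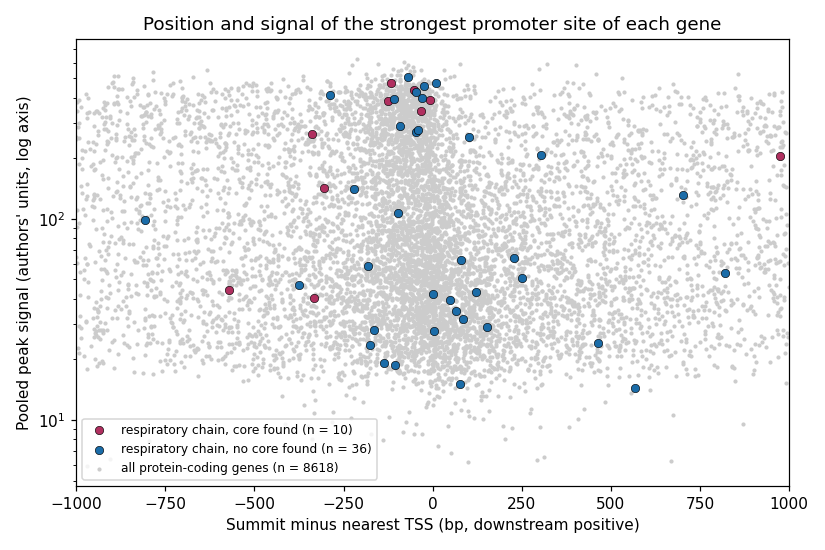
Position of the summit relative to the nearest TSS (x axis, bp, downstream positive) and pooled signal (y axis, authors' units, log axis) of the strongest promoter site of the 46 respiratory chain genes, in red with the core (n = 10) and in blue without it (n = 36), and of all 8618 protein-coding genes with a promoter site (grey). Most strong sites of the respiratory chain genes cluster just upstream of the TSS.

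The strongest promoter site of each gene, whatever its signal, lay closer to the TSS at the median than that of all protein-coding genes. The summit of the strongest promoter site was upstream of the nearest TSS at 27 of 46 respiratory chain genes (58.7%), against 56.6% of all protein-coding genes, at a median distance of 120.5 bp, against 194 bp. Within 150 bp of the TSS were 26 (56.5%), against 42.9%. Of the 10 genes whose strongest promoter site had the core, 9 carried it on the strand of the gene (90%, 59.6% to 98.2%), against 56.4% where 1 strand held the better match over all protein-coding genes. The exception was Ndufa6. Of the 9, the sites of Ndufa3 and Ndufv3 lay in repeats and held the same core letters. By the annotation, 16 summits lay between genes, 13 in introns, 8 in coding exons, 8 in UTRs and 1 in another exon. The same counts for all protein-coding genes are not given here, so these describe the respiratory chain genes only.

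Base composition and start sites moved with the share. With the genes in 3 classes of near-equal size by GC content around the outermost 5′ end, 15 of 26 respiratory chain genes (57.7%) in the highest class had a promoter site, against 61.1% of all protein-coding genes, and in the middle class 27 of 57 (47.4%), against 43.7%. In the lowest class it was 4 of 10 (40%, 16.8% to 68.7%), against 14.6%. With 1 TSS, 13 of 35 respiratory chain genes (37.1%) had a site, against 30.1%, with 2 or 3 TSSs 21 of 39 (53.8%), against 38.8%, and with 4 or more 12 of 19 (63.2%), against 59.8%. Genes with a divergent partner had a site in 16 of 31 cases (51.6%), against 59.3%, and genes without one in 30 of 62 (48.4%), against 37.7%. In 7 of these 8 classes, all but the lowest GC class, the share of all protein-coding genes lay within the interval of the respiratory chain genes, and the part of base composition in the shares was not tested.

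**Figure D5:**
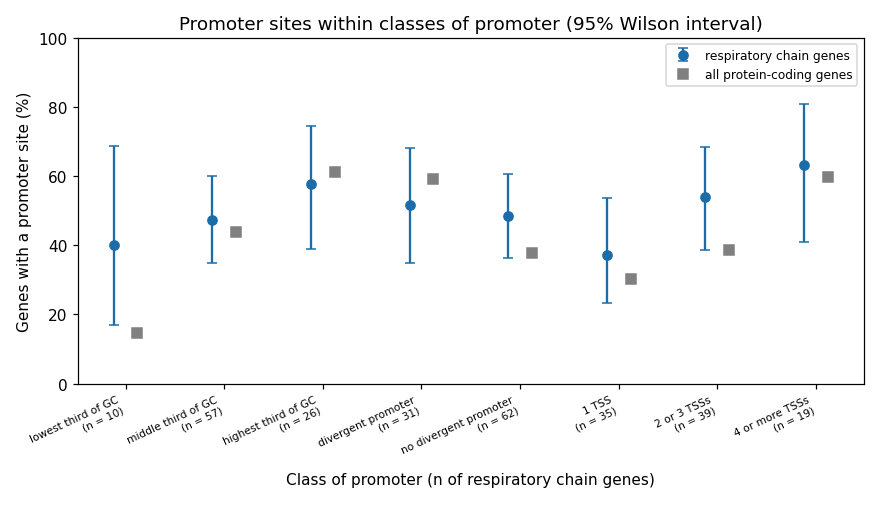
Share of genes with a promoter site (y axis, percent) in classes of promoter by GC content, divergent partner and number of TSSs (x axis). Circles with 95% Wilson intervals are respiratory chain genes and squares all protein-coding genes; the circle stands at 40% and the square at 14.6% in the lowest GC class, and at 57.7% and 61.1% in the highest.

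The promoters of respiratory chain genes held the letters of NRF1 and ETS motifs more often than promoters in general, and those of the CTCF core about as often. In the 300 bases from 250 before to 50 after the outermost 5′ end, CGCANGCG (NRF1) was found on either strand at 26 of 93 respiratory chain genes (28.0%, 19.9% to 37.8%), against 10.6% of all protein-coding genes. CCGGAAG (ETS) was found at 18 (19.4%, 12.6% to 28.5%), against 11.1%. AANATGGCG (YY1) was found at 5 (5.38%), against 2.93%, and the CTCF core also at 5, against 4.77%. The motifs can overlap. NRF1 letters were present at 16 of the 46 genes with a promoter site and 10 of the 47 without one, and ETS letters at 9 and 9. A match is a run of letters and does not show that the factor binds there.

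Some sites lay in repeats. Most of the bases within 50 bp of the summit were soft-masked in the genome, the mark of repeats, at 3 of the 46 strongest promoter sites (6.52%), against 3.31% for all protein-coding genes. It was so at 13 of the 47 nearest sites of respiratory chain genes without a promoter site (27.7%, 16.9% to 41.8%), against 13.9% for all such genes. In rodents, short interspersed repeats of one family are known to carry CTCF motifs. The core CCAGAAGAGGGC, the most frequent of all, occurred at 9 of 37 respiratory chain sites with a core on 1 strand (24.3%), against 19.4% of 30913 such sites. Of the 9, 8 were masked, against 83.2% of the 5994 sites with this core. Of these 9, the sites of Ndufa3 and Ndufv3 were promoter sites, and the others were the nearest sites of Atp5b, Atp5j2, Cox6b1, Cox7b, Ndufa1, Ndufs5 and Uqcrq. Those of Ndufa3 (chr7:3617032-3617061, plus), Ndufv3 (chr17:31519510-31519539, plus), Cox6b1 (chr7:30624071-30624100, plus) and Cox7b (chrX:106013425-106013454, minus) are shown to compare their flanks.
Ndufa3: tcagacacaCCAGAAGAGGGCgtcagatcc
Ndufv3: tttcagacaCCAGAAGAGGGCatcagatct
Cox6b1: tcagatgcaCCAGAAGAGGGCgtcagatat
Cox7b: tcctgcaggCCAGAAGAGGGCaccagatct
All 4 continue with cagat from the third base after the core, as do the sites of Atp5b, Ndufa1 and Uqcrq. That of Atp5j2 has it 1 base further on, and that of Ndufs5 does not have it.

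Other genes of the pathway were read from a list of subunits, assembly factors and regulators outside the rule, with the regulators counted apart. Of the 45 listed genes that are not regulators, 26 (57.8%, 43.3% to 71.0%) had a promoter site, against 39.8% of all protein-coding genes. The assembly factors of complex IV had one at 13 of 19, among them Cox14 (202 and 208), Cox15, an enzyme of heme A synthesis (151 and 141), and Sco2, a copper chaperone (136 and 137). The assembly factors of complex I outside the Nduf symbols had one at 2 of 9, those of complex II at 2 of 4, those of complex III at 4 of 6 and those of complex V, with its inhibitor, at 3 of 4. Cycs, the cytochrome c of somatic cells, had a site with 104 and 73.8, Cyc1 of complex III one with 40.7 and 33.6, and Cyct, the testis form of cytochrome c, none. The site of Gabpa, shared with Atp5j, was the weakest of the regulators.

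The regulators of respiratory chain genes had a promoter site at 11 of 13 genes (84.6%, 57.8% to 95.7%), against 39.8% of all protein-coding genes. Their median GC content was 59.2%, against 55.0%. In the highest GC class, which began at 59.0%, 61.1% of all protein-coding genes had a site, a share within that interval. The part of GC content was not tested. Of their 11 strongest sites, 1 was in the top 25% of sites (9.09%), against 22.7% for all protein-coding genes. Gabpb2 (176 and 177), Gabpb1 (106 and 99.4) and Gabpa, the subunits of the ETS factor GABP, all had one, as did Nrf1 (66.8 and 74.5) and Yy1 (26.3 and 32.8). Polrmt, the mitochondrial RNA polymerase (74.3 and 67.7), Tfam, which packages mitochondrial DNA (38.7 and 40.5), and Tfb2m, a factor of mitochondrial transcription (20.2 and 13.5), had one too. So did the coactivators Pprc1 (89.7 and 93.8) and Ppargc1b (32.2 and 40.1) and the nuclear receptor Esrra (28.7 and 34.2). Ppargc1a, the coactivator PGC-1alpha, had its nearest site 1868 bp away (18.2 and 12.4) and Tfb1m 2975 bp away (28.4 and 43.4). Ribosomal protein genes had a promoter site at 52 of 81 (64.2%, 53.3% to 73.8%) for the cytosolic and 41 of 78 (52.6%, 41.6% to 63.3%) for the mitochondrial ribosome, and the interval of the respiratory chain genes, 39.5% to 59.4%, overlapped both.

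The replicates differed little at most of the sites. Over the 52 of the 60 promoter sites with a peak in both replicates, the median absolute log2 ratio of the replicates was 0.24, against 0.25 over 9789 of all promoter sites. Of the 60 sites, 3 had no peak of replicate 1 within 100 bp and 6 none of replicate 2. Of all 10482 promoter sites, 340 and 397 had none, so a missing peak was more frequent at the respiratory chain sites. All 18 sites in the top 25% had a peak in both. The conservative IDR list, with 62048 sites against 64732, had a summit at the same base as 39 of the 46 strongest sites. The same count for all protein-coding genes is not given here, so 39 of 46 cannot be called high or low. The 7 without one were those of Ndufa4, Ndufb3, Ndufb6, Ndufaf8, Uqcr10, Atp5g1 and Atp5j. A conservative peak with a shifted summit was not counted here. By that list 45 of the 93 genes (48.4%) had a promoter site, against 38.0% of all protein-coding genes.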

How the data were processed

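CTCF ChIP-seq of newborn lung was deposited as peak lists on mm10, per the file headers and README texts. The deposited lists were 1 per replicate, 1 for the pooled replicates and optimal and conservative IDR lists made from these. The aligner, the peak caller and the IDR cutoff were not given in the sources used here. Peak signal is a deposited value of the authors' caller; the summit is a deposited offset from the peak start. Protein-coding TSSs came from GENCODE M21, and sequences from RefSeq's GRCm38.p6, whose promoter table matched the genome at 79 of 79 windows and held 74 of the 93 members.

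The summit of each optimal site was set against every protein-coding TSS (1000 bp). The strongest site within that distance stood for a gene, or the nearest site where there was none. Replicate signals are those of the peak whose summit lay within 100 bp. The core was searched within 50 bp on both strands, with at most 1 mismatch. GC content was that of 500 bp on either side of the outermost 5′ end. Python 3.11.15, numpy 2.4.6, scipy 1.17.1 and matplotlib 3.10.9 were used. The searches were tested on simulated data.

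With 1 group no comparison of conditions was possible, and shares and medians are descriptions beside those of all protein-coding genes, with 95% Wilson intervals and no test. Depth is unknown. The members, lists and measures were chosen with earlier results of these data known. Values in both replicates are given for the 3 genes with the strongest promoter site in each group of complex I and in complexes III, IV and V, all of complex II, tissue-restricted isoforms with their counterparts, c-subunit genes, genes nearest the distance limit and farthest from any site, and regulators with a site; other genes were named after their values were seen. Alternatives used the conservative list, only the 32366 highest sites, 1 replicate at a time, 1 TSS per gene, other distances, windows and mismatch limits, and the list without assembly factors or isoforms. The values of 1 gene that this choice selects are not reported here; it is counted in the shares.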

Additional observations from a re-analysis of the deposited data

Results flagged for a closer look

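Peaks below the reproducibility threshold were examined at the genes without a promoter site, because the pooled list is longer than the list of sites. Of these 47 respiratory chain genes, 41 (87.2%, 74.8% to 94.0%) had a pooled peak within 1000 bp of a TSS, against 50.1% of the 13028 protein-coding genes without a promoter site. A peak in both replicates was present at 21 (44.7%), against 23.6%. The peaks were weak, with a median pooled signal of 12.4, against 11.4. The highest was at Sdha, with 26.3 in replicate 1 and 16.2 in replicate 2, followed by Atp5s (15.9 and 18.2), Atp5e, the epsilon subunit of ATP synthase (15.3 and 13.4), and Atp5g3 (10.7 and 13.3). No control library was used here, and how many of these peaks are background was not tested.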

How the results depend on the processing

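The share of respiratory chain genes with a promoter site was above that of all protein-coding genes in 9 of 9 alternatives. It was 25.8%, against 19.2%, with the 32366 sites of highest signal and 71.0%, against 56.6%, with TSSs within 5000 bp. With each replicate alone it was 52.7% to 54.8%, against 40.3% to 40.4%. A replicate alone stood for its 64732 highest peaks, without the IDR filter. For all protein-coding genes the share was 38.0% with the conservative list, 35.4% with 1 TSS per gene and 33.2% within 500 bp, where respiratory chain genes had 48.4%, 48.4% and 45.2%.

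The median log2 signal of promoter sites of respiratory chain genes, against that of all promoter sites, was 5.99, against 5.95, with the conservative list, 8.14, against 7.54, with the 32366 highest sites and 6.46, against 6.03, within 5000 bp. Each replicate alone, on its own scale, gave 4.67 to 4.72, against 4.76 to 4.90, and 1 TSS per gene gave 5.78, against 5.82, so the order turned in these. Without isoforms it was 5.89. The core was found at 6.67% of sites, against 3.90%, with 0 mismatches, 50%, against 50.7%, with 2, and 38.8%, against 34.5%, within 5000 bp. It was at 15.4% to 18.3% with each replicate alone, against 20.3% to 20.5%, at 20%, against 21.8%, with a window of 100 bp, at 20.4%, against 21.5%, with the conservative list, and at 20%, against 17.0%, within 500 bp. The order turned within 500 and 5000 bp and with 0 mismatches. The median distance to a site was 1918 bp, against 3395 bp, with the conservative list, 5313 bp, against 11306 bp, with the 32366 highest and 1853 bp, against 4015 bp, with 1 TSS per gene. With each replicate alone it was 349 to 671 bp, against 2857 to 2863.5 bp. The causes of these shifts were not tested. Matching summits within 50 bp changed 8 of 186 replicate signals. With 1 group from the same biosample, no value speaks to variation between animals, and weak sites, where a replicate often lacks a peak, are the least certain.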
